A study of Mus musculus with 45 samples.

Results

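The 9 enzymes that carry squalene to cholesterol were followed over every diet and tissue of the series. They are Sqle, Lss, Cyp51, Tm7sf2, Nsdhl, Hsd17b7, Ebp, Sc5d and Dhcr7, chosen by name as rows of the processed expression table, and all 9 were found among its 22080 genes. Male C57BL/6 mice were 7 weeks old at the start, with 8 mice in each of 5 diet groups, and tissues were taken on day 43 after food had been withheld. Control mice ate the standard diet AIN-93, and HCD mice ate it with 0.5% cholesterol. The other groups ate the same cholesterol diet with 1% of an extract of the mushroom Ganoderma lucidum (HCD+Gl-1), with 1% of an extract of the mushroom grown on substrate with 10 mM acetylsalicylic acid (HCD+Gl-2), or with 0.03 g per 100 g of simvastatin, a statin that blocks cholesterol synthesis (HCD+Sim). Liver, kidney and brain RNA was measured on 45 Affymetrix Mouse Gene ST arrays, 3 for each tissue and diet. By the methods, pool A held 4 mice, pool B the other 4, and pool C was a mix of both, so each group rests on 2 separate pools and p-values measure the spread between pooled samples.

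Cholesterol is built in the endoplasmic reticulum from acetyl-CoA by way of mevalonate and squalene. Squalene epoxidase and lanosterol synthase make the first sterol, and the enzymes after them strip methyl groups and shift or reduce double bonds until cholesterol is left. When membrane sterols are scarce, the transcription factor SREBP-2 reaches the nucleus and raises transcription of these genes, and dietary cholesterol lowers it, for which the liver is the textbook example. Factors that bind CCAAT boxes, such as NF-Y, and Sp1 are known partners of SREBP at such promoters.

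To show the DNA that such factors would read, windows of 300 bases around annotated gene starts (250 before, 50 after) were taken from RefSeq on GRCm38.p6. Of the 9 genes, 8 had a window, all but Sqle, and Dhcr7 had 3. The 4 windows below belong to the demethylase gene Cyp51 (chr5:4104648-4104947, minus strand), the decarboxylase gene Nsdhl (chrX:72918271-72918570, plus strand), the third Dhcr7 start (chr7:143829964-143830263, plus strand) and the sterol isomerase gene Ebp (chrX:8193463-8193762, minus strand). Cyp51, Nsdhl and Dhcr7 were among the enzymes that differed between liver diets, and Ebp, shown beside them, was the flattest. Capitals mark CCAAT on either strand.
Cyp51: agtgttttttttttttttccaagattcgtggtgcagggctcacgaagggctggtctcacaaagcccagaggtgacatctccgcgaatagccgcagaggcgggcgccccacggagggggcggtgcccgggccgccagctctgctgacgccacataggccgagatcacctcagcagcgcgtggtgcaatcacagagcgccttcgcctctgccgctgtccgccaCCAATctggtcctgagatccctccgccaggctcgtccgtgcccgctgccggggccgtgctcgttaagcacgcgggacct
Nsdhl: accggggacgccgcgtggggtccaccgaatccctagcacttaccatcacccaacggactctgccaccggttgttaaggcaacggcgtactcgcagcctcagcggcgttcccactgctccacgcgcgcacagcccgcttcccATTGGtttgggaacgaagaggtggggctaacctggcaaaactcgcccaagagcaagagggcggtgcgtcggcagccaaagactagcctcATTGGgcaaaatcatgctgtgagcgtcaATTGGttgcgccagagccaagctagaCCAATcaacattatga
Ebp: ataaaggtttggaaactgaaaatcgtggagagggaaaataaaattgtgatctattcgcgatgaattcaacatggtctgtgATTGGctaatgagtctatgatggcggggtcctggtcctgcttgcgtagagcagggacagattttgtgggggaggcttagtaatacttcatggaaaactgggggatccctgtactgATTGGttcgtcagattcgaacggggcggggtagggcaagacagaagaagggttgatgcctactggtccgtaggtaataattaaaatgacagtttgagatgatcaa
Dhcr7: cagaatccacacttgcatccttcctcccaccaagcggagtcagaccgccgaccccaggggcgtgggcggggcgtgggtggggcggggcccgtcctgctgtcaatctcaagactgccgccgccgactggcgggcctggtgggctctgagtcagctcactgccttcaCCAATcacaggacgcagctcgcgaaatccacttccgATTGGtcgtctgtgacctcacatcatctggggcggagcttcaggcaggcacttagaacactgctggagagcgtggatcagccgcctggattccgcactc
CCAAT or its complement lay in 8 of the 10 windows, against 37.4% of all 32851 windows, and was missing from the first and second Dhcr7 windows. Counted by gene, all 8 had it in at least 1 window, against 41.1% of 27025 genes. Counted from the annotated start, with minus for bases before it, the box began at -29 in Cyp51, at -85 and -49 in Dhcr7, and at -170 and -55 in Ebp. Nsdhl held 4 matches, at -109, -20, 9 and 35. The box was thus present both in genes whose liver level differed between diets and in Ebp, which passed no test between liver diets. The Sp1 box GGGCGG lay in 9 of the 10 windows (35.7% of all windows) and the E-box CACGTG in 3 (7.15%). No window held TCACNCCAC, a single spelling of a sterol response element, which 1.24% of all windows held. Other spellings were not searched, so this does not show that the windows lack such an element. Both strands were read and the 4 motifs were searched separately, so matches may overlap.

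Values were the authors' log2 expression after RMA, quantile normalization and ComBat, so levels of different genes were not compared with each other. Array medians lay between 6.76 and 6.92. Defining markers fitted the tissue named in each array's title. Hepatocyte markers averaged 13.20 to 13.35 in liver and at most 9.20 elsewhere, kidney markers 12.08 to 12.21 in kidney and at most 5.93 elsewhere, and brain markers 11.20 to 11.39 in brain and at most 6.85 elsewhere, although a free-text description calls liver and kidney samples brain tissue. Some sets of liver arrays stood apart. In Control arrays A and B the mean of 6 squamous epithelium markers was 6.57 and 6.94, against 5.88 to 6.16 on the other 13 liver arrays, and 3 of the 6 exceeded every other liver array. In HCD+Sim arrays A and B all 9 pancreas acinar markers (mean 7.51 and 7.97, elsewhere in liver 6.10 to 6.37) and all 8 skeletal muscle markers (7.58 and 8.06, elsewhere 6.17 to 7.07) exceeded every other liver array. Muscle markers were also at 6.88 to 7.07 on all 3 Control arrays. In HCD+Gl-2 arrays A and C all 6 immediate early genes did (8.79 and 9.25, elsewhere 6.76 to 7.41). All 3 kidney HCD+Gl-2 arrays also had high immediate early genes (8.37 to 8.82, against 6.45 to 7.05 on the other kidney arrays), and all 6 were DE and higher than in kidney Control. What these markers contribute to the results below was not tested. The liver calls between diets are given again without the liver arrays that stood apart. Pool C, described as a mix, lay between pools A and B in 33 of 135 combinations of enzyme and group, and in 20.4% to 35.5% of all genes per group.

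**Figure D1:**
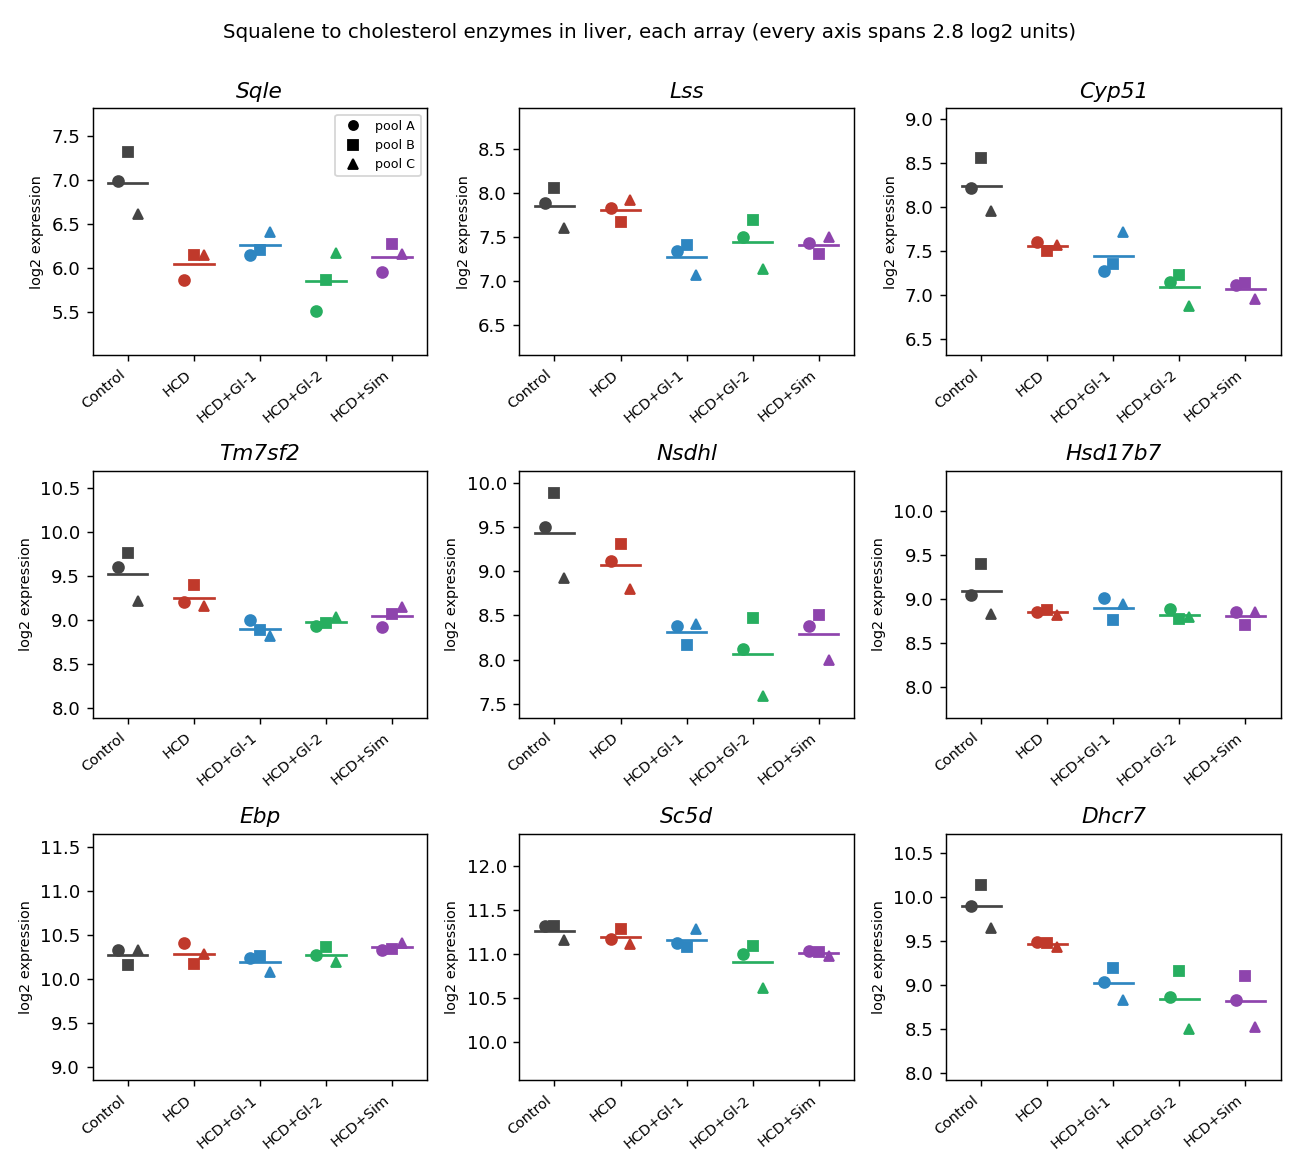
Liver log2 expression (vertical axes, each 2.8 units high) of the 9 enzymes on each array, by diet; circles, squares and triangles are pools A, B and C and lines are means of 3 arrays. Nsdhl and Dhcr7 step down from Control to the treated groups, while Ebp stays between 10.08 and 10.41 on all 15 arrays.

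The effect of dietary cholesterol alone was read from liver HCD against Control. Sqle, the squalene epoxidase gene and a rate-limiting step of the pathway, fell, and no other enzyme passed both thresholds that define DE here, more than 0.7 up or down in log2 fold change together with an adjusted p no higher than 0.05. Sqle read 6.98, 7.31 and 6.61 in Control arrays A, B and C, and 5.86, 6.14 and 6.14 in HCD. All 3 HCD arrays lay below all 3 Control arrays. These HCD values were also below the median of every array (6.76 to 6.92), near the mean of kidney markers on liver arrays (5.56 to 5.93). On the log2 scale the difference was -0.92, with a standard error of 0.13 and an adjusted p of 4.21e-05 by limma and Benjamini-Hochberg. That put HCD at 52.9% of Control, a ratio that is rough at so low a signal. With Sqle, 1 of 9 enzymes was DE and lower, where 0.140% of all genes were.

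Cyp51, the lanosterol demethylase gene, came next. It read 8.21, 8.56 and 7.96 in Control and 7.60, 7.50 and 7.57 in HCD, with no overlap. Its log2 difference of -0.69 (SE 0.11, adjusted p 0.000253) came just short of the fold threshold. By adjusted p alone 2 of 9 enzymes were lower, against 0.765% of all genes. Dhcr7 differed by -0.43 (adjusted p 0.0843) and Nsdhl by -0.36 (adjusted p 0.399), and the remaining 5 lay between -0.27 and 0.01. The median over the 9 enzymes was -0.27, beside -0.01 over all genes. The Control arrays spread widely, with array B highest in 8 of the 9 enzymes and array C lowest in 8. Without Control arrays A and B, an alternative chosen after the data were seen in which array C is assumed to vary like the other groups, Sqle differed by -0.56 (adjusted p 0.137), Cyp51 by -0.41 (adjusted p 0.227), and no enzyme was DE.

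With a treatment added to the cholesterol diet, 4 enzymes were DE and lower than in Control in each of the 3 treated groups, and they were Sqle, Cyp51, Nsdhl and Dhcr7 each time. The comparisons share the 3 Control arrays. Of all genes, 0.195% were DE and lower in HCD+Gl-1, 0.281% in HCD+Gl-2 and 0.140% in HCD+Sim. By adjusted p alone the enzymes that were lower numbered 6, 7 and 6, beside 1.75%, 1.60% and 0.543% of all genes. The median log2 fold change of the 9 was -0.63 in HCD+Gl-1, -0.55 in HCD+Gl-2 and -0.48 in HCD+Sim, with medians of all genes between -0.03 and 0.02. No enzyme was DE and higher.

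At the head of the pathway, Sqle read 6.15, 6.20 and 6.41 in HCD+Gl-1, 5.51, 5.86 and 6.17 in HCD+Gl-2, and 5.95, 6.27 and 6.16 in HCD+Sim. Every one of these 9 arrays lay below the lowest Control array, as the HCD arrays did. All of these Sqle values were also below the median of every array. The log2 fold changes were -0.71 (adjusted p 0.00102), -1.12 (adjusted p 3.12e-07) and -0.84 (adjusted p 9.71e-05), each with a standard error of 0.13. Lss, which closes squalene epoxide into lanosterol, read 7.89, 8.06 and 7.61 in Control and 7.83, 7.68 and 7.93 in HCD. It was lower by adjusted p but under the fold threshold in the treated groups, at -0.58 (adjusted p 0.00107), -0.41 (adjusted p 0.0272) and -0.44 (adjusted p 0.0245), against -0.04 (adjusted p 0.955) in HCD. None of the 3 passed without Control arrays A and B (-0.33, -0.16 and -0.19). Without HCD+Gl-2 arrays A and C the HCD+Gl-2 value was -0.15 (adjusted p 0.696), and without HCD+Sim arrays A and B the HCD+Sim value was -0.35 (adjusted p 0.219). With single arrays of the compared groups left out, each of these last 2 comparisons passed in 3 of 6 fits.

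The enzymes that remove the methyl group of lanosterol and reduce the double bond left behind are Cyp51 and Tm7sf2. Cyp51 read 7.27, 7.35 and 7.72 in HCD+Gl-1, 7.15, 7.23 and 6.88 in HCD+Gl-2, and 7.12, 7.14 and 6.95 in HCD+Sim. The log2 fold change was -0.80 (adjusted p 2.81e-05), -1.15 (adjusted p 5.78e-09) and -1.17 (adjusted p 4.94e-09), with a standard error of 0.11. HCD+Gl-2 and HCD+Sim were thus at 44.9% and 44.4% of Control. Tm7sf2, a sterol reductase gene, averaged 9.52 in Control (SD 0.28, n = 3) and 8.90, 8.98 and 9.05 in the 3 treated groups. It stayed under the fold threshold at -0.63, -0.55 and -0.48, with adjusted p of 6.78e-05, 0.000294 and 0.00304. Without Control arrays A and B these were -0.32, -0.24 and -0.17 (adjusted p 0.168, 0.438 and 0.696), and without HCD+Sim arrays A and B the last was -0.37 (adjusted p 0.130).

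Nsdhl and Hsd17b7 act in turn when the paired methyl groups at the other end of the sterol are removed. Nsdhl, the decarboxylating dehydrogenase, read 9.50, 9.89 and 8.93 in Control and 9.12, 9.31 and 8.80 in HCD, and these groups overlapped. In HCD+Gl-1 it read 8.38, 8.17 and 8.40, in HCD+Gl-2 8.12, 8.47 and 7.59, and in HCD+Sim 8.38, 8.50 and 8.00. All 9 treated arrays lay below the lowest HCD array. Against Control the log2 fold changes were -1.12 (adjusted p 3.50e-05), -1.38 (adjusted p 2.49e-07) and -1.15 (adjusted p 1.48e-05), each with a standard error of 0.16. The changes in HCD+Gl-1 and HCD+Gl-2 were the largest of the 9 enzymes. The error rests on 1 spread shared by the 3 tissues. Nsdhl had an SD of 0.48 in liver Control, 0.26 in HCD, 0.13 in HCD+Gl-1, 0.44 in HCD+Gl-2 and 0.26 in HCD+Sim. It was at most 0.14 in kidney and 0.15 in brain, so the shared error may be too small for liver. Hsd17b7, the keto reductase of the same complex, differed by -0.19, -0.27 and -0.29 (adjusted p 0.276, 0.117 and 0.117), and its treated arrays overlapped those of Control. The shared error may be too small for liver in Sqle, Cyp51 and Dhcr7 as well. Their SD was 0.35, 0.30 and 0.25 in liver Control, and at most 0.20, 0.19 and 0.14 in any kidney or brain group.

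The last steps move a double bond (Ebp), add another (Sc5d) and reduce the moved one to give cholesterol (Dhcr7). Ebp differed from Control by -0.08, 0.00 and 0.09, with 95% intervals that stayed between -0.30 and 0.30. Sc5d was lower by adjusted p in HCD+Gl-2 (-0.36, adjusted p 0.0180), with values of -0.10 and -0.25 in HCD+Gl-1 and HCD+Sim. It did not pass without HCD+Gl-2 arrays A and C (-0.16, adjusted p 0.558) or without Control arrays A and B (-0.25, adjusted p 0.463). Dhcr7 read 9.90, 10.13 and 9.64 in Control and 9.49, 9.47 and 9.43 in HCD. It read 9.03, 9.19 and 8.83 in HCD+Gl-1, 8.86, 9.16 and 8.50 in HCD+Gl-2, and 8.83, 9.10 and 8.52 in HCD+Sim, every array below those of Control and HCD. Its log2 fold changes against Control were -0.87, -1.05 and -1.07 (standard error 0.13, adjusted p 3.50e-05, 3.80e-07 and 5.19e-07).

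**Figure D2:**
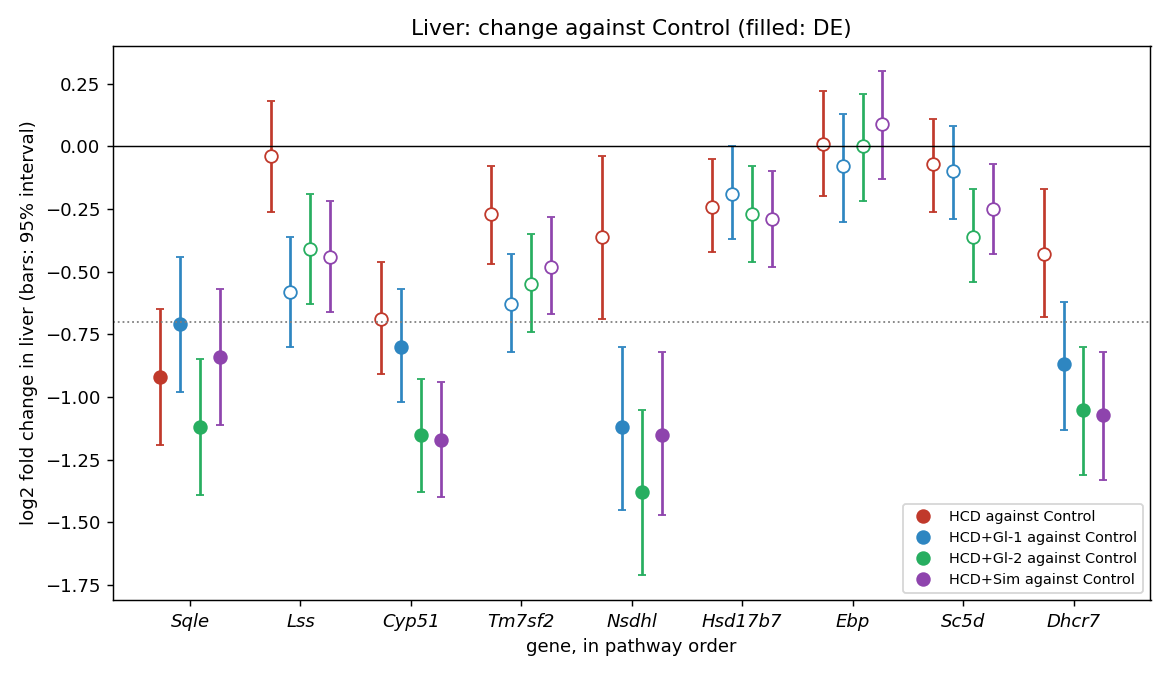
Liver log2 fold change against Control (vertical axis) for each enzyme in pathway order, with 95% intervals from the limma fit; filled points are DE and the dotted line marks -0.7. Sqle is filled in all 4 diets, and Cyp51, Nsdhl and Dhcr7 in the 3 treated groups, down to -1.38 for Nsdhl.

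How far these counts rest on single arrays differed between treatments. Without Control array B, HCD+Gl-1 kept 2 DE enzymes, since Sqle (-0.54) and Cyp51 (-0.64) dropped under the fold threshold. Sqle also left the HCD+Gl-1 calls without HCD+Gl-1 array A or B, and the HCD+Sim calls without Control array B (-0.67). The 4 calls in HCD+Gl-2 remained with each array left out. Without Control arrays A and B, which carried the squamous markers, 0 enzymes were DE in HCD+Gl-1, 4 in HCD+Gl-2 and 2 in HCD+Sim, where Sqle (-0.48) and Nsdhl (-0.64) were lost. The HCD+Gl-1 values there were -0.36 for Sqle, -0.52 for Cyp51, -0.61 for Nsdhl and -0.62 for Dhcr7 (adjusted p 0.294, 0.0672, 0.111 and 0.0666). Without the HCD+Sim arrays that carried pancreas and muscle markers the count against Control was 4, and without the HCD+Gl-2 arrays with high immediate early genes it was 4 as well.

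**Figure D3:**
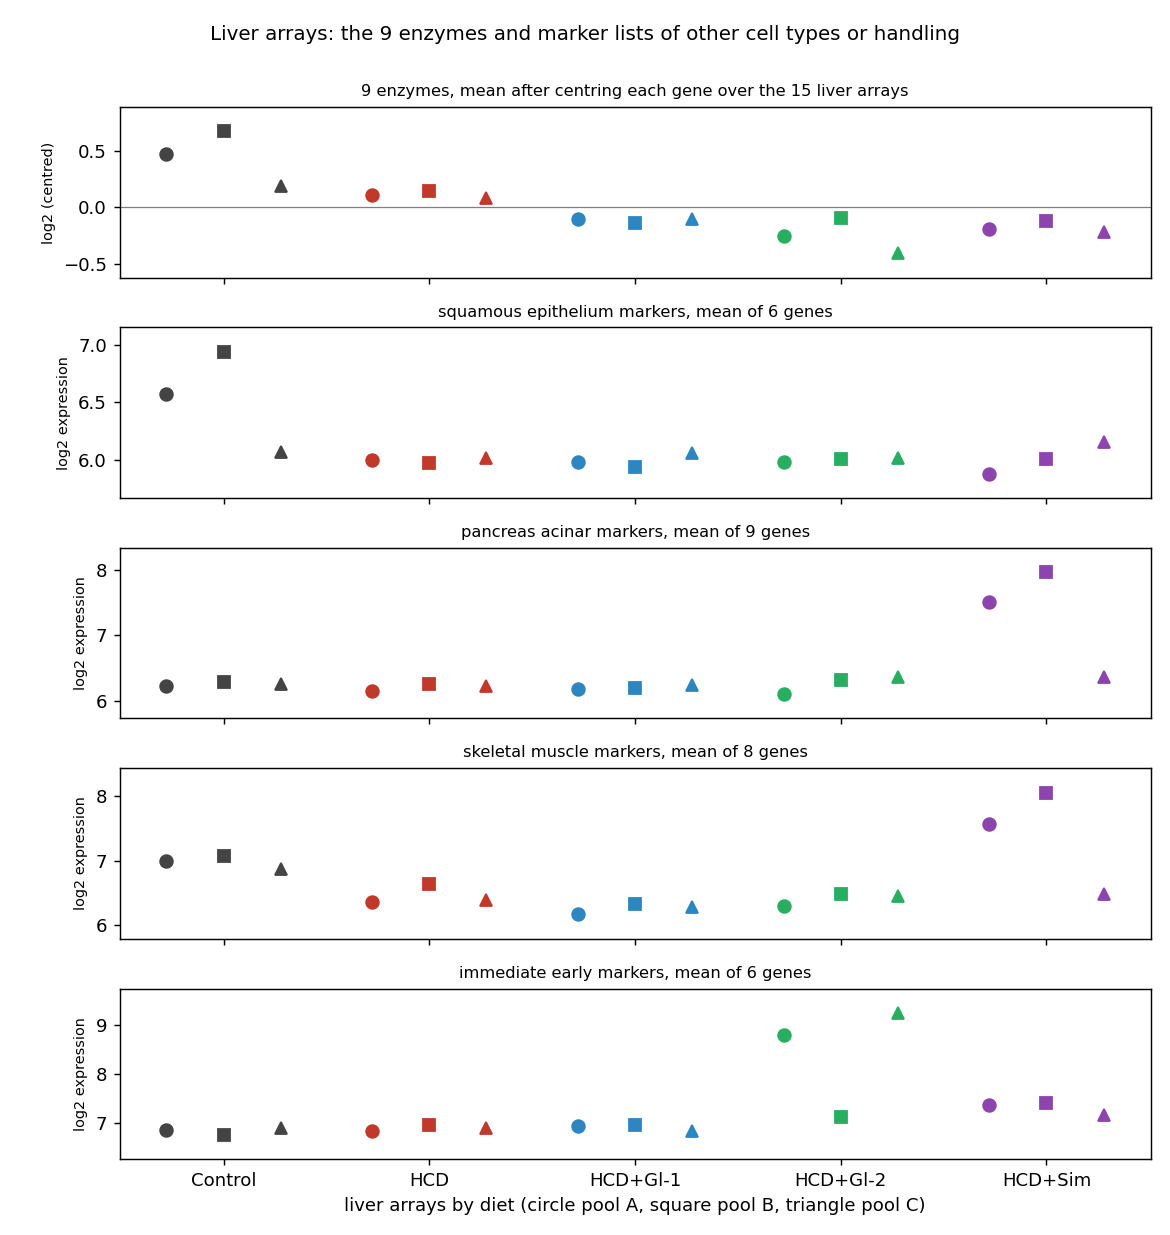
Mean of the 9 enzymes after centring each gene (top, log2) and mean log2 expression of 4 marker lists on the 15 liver arrays, by diet; circles, squares and triangles are pools A, B and C. Control arrays A and B are highest for both the enzymes (0.47 and 0.67) and the squamous markers (6.57 and 6.94), while Control array C reads 0.19 and 6.07.

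Against HCD, the comparison that sets each treatment beside cholesterol alone, only Nsdhl was DE. Its log2 fold change was -0.76 in HCD+Gl-1 (adjusted p 0.00636), -1.02 in HCD+Gl-2 (adjusted p 0.000165) and -0.78 in HCD+Sim (adjusted p 0.00735), on shared HCD arrays. That is 1 of 9 enzymes each time, beside 0.0679%, 0.0951% and 0.0589% of all genes that were DE and lower. Dhcr7 passed the adjusted p in all 3 at -0.45, -0.62 and -0.64, under the fold threshold. Cyp51 passed it in HCD+Gl-2 (-0.47, adjusted p 0.0184) and HCD+Sim (-0.49, adjusted p 0.0183), and Lss (-0.54) and Tm7sf2 (-0.35) in HCD+Gl-1. With each array of the compared groups left out in turn, Dhcr7 in HCD+Gl-1 passed in 1 of 6 fits, Tm7sf2 in 2 of 6, and Cyp51 in 3 of 6 in both HCD+Gl-2 and HCD+Sim. Sqle, the enzyme that fell in HCD itself, differed from HCD by 0.21, -0.20 and 0.08 (adjusted p 0.470, 0.585 and 0.889). The Nsdhl call was lost in HCD+Gl-1 without HCD array B or HCD+Gl-1 array B, and in HCD+Sim without HCD array B or HCD+Sim array C. In HCD+Gl-2 it was lost without arrays A and C, the arrays with high immediate early genes (-0.61, adjusted p 0.164), as were the passes of Dhcr7 (-0.30, adjusted p 0.434) and Cyp51 (-0.33, adjusted p 0.382). It was also lost in all 3 when the 15 liver arrays were fitted alone.

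Set against each other, the 3 treatments gave no DE enzyme, where 0.476% of all genes were DE in at least 1 of the 3 comparisons. Of 27 values, 5 had an unadjusted p under 0.05, a share close to that of all genes. Of the 22080 genes, 4363 did in HCD+Gl-2 against HCD+Gl-1, 4695 in HCD+Gl-1 against HCD+Sim and 2704 in HCD+Gl-2 against HCD+Sim. The 27 enzyme values lay between -0.41 (Sqle, HCD+Gl-2 against HCD+Gl-1, 95% interval -0.67 to -0.14) and 0.38 (Cyp51, HCD+Gl-1 against HCD+Sim, 0.15 to 0.60). The latter passed the adjusted p at 0.0484 but not the fold threshold. For Nsdhl, HCD+Gl-1 and HCD+Sim differed by 0.02, with an interval from -0.30 to 0.35. Differences inside such intervals were not detectable with 3 arrays a group.

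Across the 15 liver arrays the enzymes moved together to different degrees. The Pearson coefficient of each with the mean of the other 8 was 0.94 for Nsdhl, 0.93 for Dhcr7, 0.92 for Cyp51 and 0.86 for Tm7sf2. It was 0.74 for Lss and Sc5d, 0.70 for Sqle and Hsd17b7, and -0.12 for Ebp. These describe arrays that share pools and diets, and no test was made of them. Outside the 9, the genes most like their centred mean were Fdps (0.949), Fads1 (0.946), Acss2 (0.941), Msmo1 (0.933) and Rdh11 (0.912). Fdps makes farnesyl diphosphate ahead of squalene, Msmo1 is a sterol methyl oxidase, Fads1 is a fatty acid desaturase, and Acss2 makes acetyl-CoA from acetate. At the opposite end were Agpat6 (-0.940), Por (-0.918), Dock5 (-0.908), Usp2 (-0.898) and Wee1 (-0.892). Por encodes the reductase that passes electrons to cytochrome P450 enzymes and to squalene epoxidase.

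The steps on either side of the 9 enzymes were read from lists of other pathway genes. Of the 9 genes from acetyl-CoA to squalene, 0 were DE in liver HCD against Control, 2 in HCD+Gl-1, 3 in HCD+Gl-2 and 3 in HCD+Sim, all lower, with median log2 fold changes of -0.17, -0.36, -0.21 and -0.25. The shares of all genes that were DE and lower were 0.140%, 0.195%, 0.281% and 0.140%. Fdps was DE in every treated group, at -1.13, -1.12 and -1.11, and differed by -0.33 in HCD (adjusted p 0.488). Pmvk, the phosphomevalonate kinase gene, was DE in HCD+Gl-1 (-0.76) and HCD+Sim (-0.72). Idi1, the isomerase of the isoprene unit, was DE in HCD+Gl-2 (-0.77) and HCD+Sim (-0.71), and Hmgcs1, the HMG-CoA synthase gene, in HCD+Gl-2 (-0.76).

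Of the 4 other enzymes after squalene, only Msmo1 was DE, at -0.72 in HCD+Gl-1, -0.83 in HCD+Gl-2 and -0.92 in HCD+Sim. Of the 9 genes of sterol sensing and uptake, Insig2, whose product holds SREBP in the endoplasmic reticulum, was DE in HCD+Gl-2 (-0.81). No other gene of that list was DE in the 4 comparisons with Control. Srebf2, which encodes SREBP-2, lay between -0.28 and -0.15, with an adjusted p of 0.0313 in HCD+Gl-1. These calls leaned on arrays that stood apart. Without Control arrays A and B, 1 of the 3 pathway genes called in HCD+Gl-1 remained (Pmvk), 0 of 5 in HCD+Gl-2 and 0 of 4 in HCD+Sim, with Fdps at -0.67, -0.66 and -0.64. Without HCD+Gl-2 arrays A and C, 1 of the 5 remained (Insig2), and without HCD+Sim arrays A and B, 3 of the 4 did.

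In kidney and brain none of the 9 enzymes was DE in any of the 7 diet comparisons with Control or HCD, where 0.453% of all genes in kidney and 0.226% in brain were DE at least once. In kidney the values lay between -0.33 and 0.21, and in brain between -0.22 and 0.28. In each tissue 4 of 63 values had an unadjusted p under 0.05. Of the 22080 genes, 729 to 1980 did per comparison in kidney and 1220 to 3045 in brain. The lowest adjusted p of the enzymes was 0.506 in kidney and 0.351 in brain. Nsdhl in kidney, for example, read 10.03, 10.03 and 10.05 in Control and 9.76, 9.81 and 9.55 in HCD+Gl-2 (-0.33, 95% interval -0.66 to -0.01, adjusted p 0.564). That interval uses the spread shared with liver and may be too wide for kidney. In brain it read 8.58, 8.53 and 8.53 in Control and 8.73, 8.64 and 8.92 in HCD+Gl-2. Of the 22 other pathway genes none was DE against Control in either tissue, with 17 of 88 values in kidney and 10 of 88 in brain at an unadjusted p under 0.05. Against Control, 729 to 1911 of the 22080 genes per comparison had such a p in kidney and 1423 to 3045 in brain. Mylip passed the adjusted p in kidney HCD+Gl-2 (0.62, adjusted p 0.000767), under the fold threshold.

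**Figure D4:**
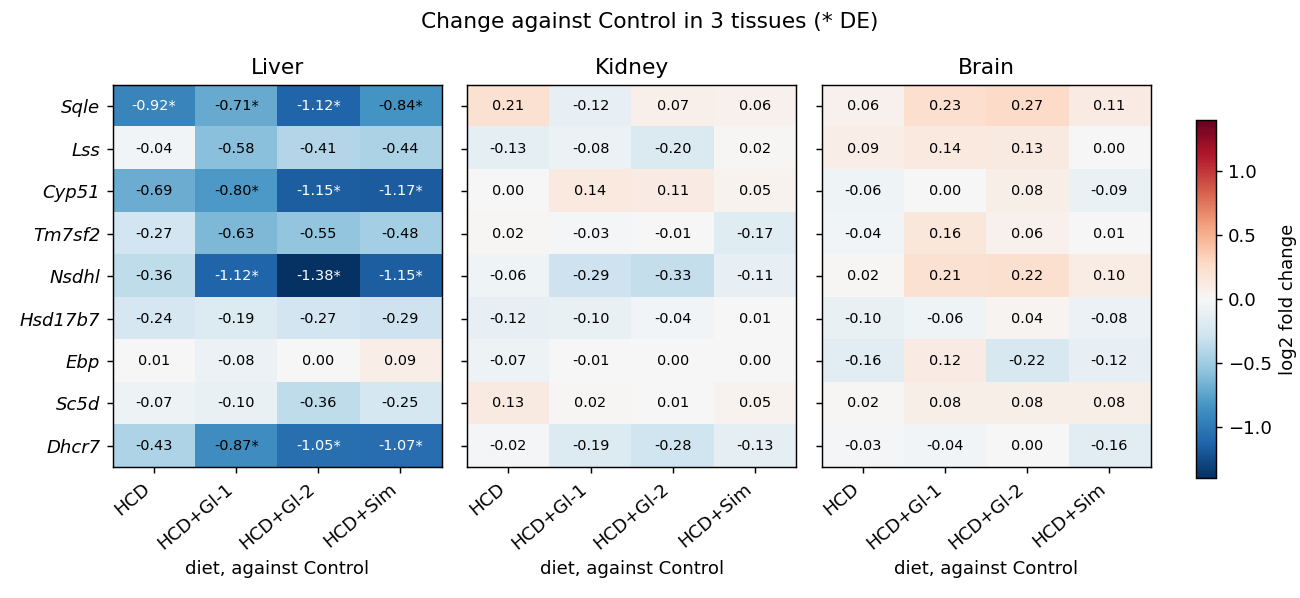
Log2 fold change against Control (colour and printed value) of the 9 enzymes (rows) in each diet (columns) for liver, kidney and brain; stars mark DE. All 13 stars are in liver, and kidney and brain values run from -0.33 to 0.27.

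The difference between tissues was tested as such, as the liver change minus the change elsewhere. Against kidney, 1 enzyme had a DE difference, with the lower value in liver, in HCD (Sqle, -1.12) and 1 in HCD+Gl-1 (Cyp51, -0.93), beside 0.0543% and 0.0589% of all genes. In HCD+Gl-2 and HCD+Sim there were 4, the same 4 enzymes as above, beside 0.231% and 0.113%. Against brain there was 1 in HCD (0.0951% of all genes), 6 in HCD+Gl-1 (0.204%), 4 in HCD+Gl-2 (0.408%) and 4 in HCD+Sim (0.131%). The 6 were Sqle, Lss, Cyp51, Tm7sf2, Nsdhl and Dhcr7. All of these contrasts use the liver Control arrays, and those with HCD+Gl-2 in kidney use arrays with high immediate early genes. They also treat arrays of different tissues as independent, although by the methods liver and kidney came from the same mice. Without liver Control arrays A and B, 6 of the 25 differences over all diets were DE, 4 of them in HCD+Gl-2, and none in HCD or HCD+Gl-1. Without liver HCD+Gl-2 arrays A and C, Nsdhl and Dhcr7 were no longer DE against kidney in HCD+Gl-2 (-0.64 and -0.45).

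On the Control diet the enzymes differed between liver and the other tissues more often than all genes did. Between kidney and brain their share was near that of all genes. Between liver and kidney 6 of 9 enzymes were DE (16.8% of all genes), between liver and brain 7 (32.7%) and between kidney and brain 3 (30.0%). The pairs with liver use all 3 liver Control arrays and were not tested again without arrays A and B. On liver Control array C alone Dhcr7 read 9.64 (brain mean 9.04) and Nsdhl 8.93 (kidney mean 10.04). With single arrays left out, the total of 16 calls did not change. Sqle was lowest in liver (6.97, SD 0.35) and read 7.74 (SD 0.12) in brain and 8.24 (SD 0.13) in kidney, with kidney and brain under the fold threshold apart. Cyp51 was highest in kidney (9.74, SD 0.14), above liver (8.24, SD 0.30) and brain (7.82, SD 0.03), and liver and brain differed by less than the fold threshold. Nsdhl was also highest in kidney (10.04), then liver (9.44) and brain (8.54), with the first pair under the fold threshold apart.

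Tm7sf2, Sc5d, Ebp and Dhcr7 were highest in liver. Tm7sf2 stood 2.18 above kidney and 2.50 above brain, and Sc5d 2.13 above both, while kidney and brain differed by 0.01 for Sc5d (adjusted p 0.945). Ebp fell in order from liver (10.27) to kidney (9.12) and brain (7.54), each step DE. Dhcr7 stood 1.25 above kidney and 0.85 above brain. Hsd17b7 stood 1.05 above brain and 0.63 above kidney, the latter under the fold threshold. Lss, at 7.86, 7.54 and 7.60 in liver, kidney and brain, was not DE between any pair. Brain is a mixture in which myelinating cells hold much of the sterol, and fewer cells of a type cannot be told apart from less RNA per cell in these whole-tissue samples.

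**Figure D5:**
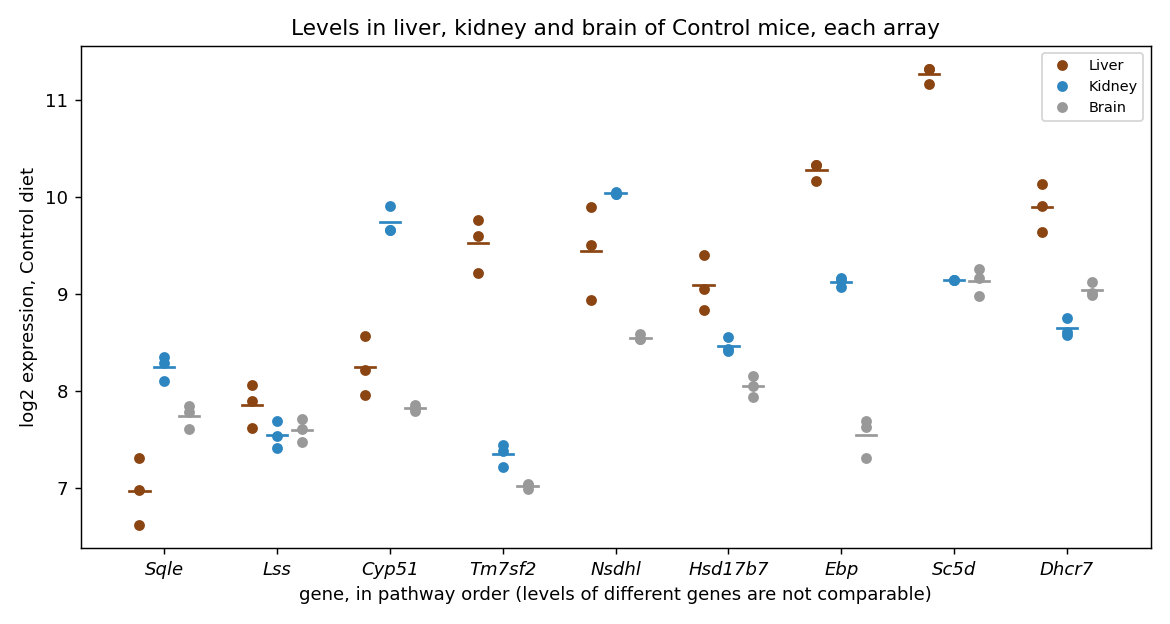
Log2 expression (vertical axis) of each enzyme on the 3 Control-diet arrays of liver, kidney and brain, with lines at the means; genes are in pathway order and their levels are not comparable with each other. Sqle is lowest in liver (6.97), Cyp51 highest in kidney (9.74), and Sc5d higher in liver (11.27) than in kidney and brain (9.14 and 9.13).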

How the data were processed

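Per the labels and the methods, RNA pools of liver, kidney and brain were hybridised to 45 Mouse Gene ST v1.0 arrays. The authors corrected the background with RMA, quantile normalized, adjusted for batches with ComBat (the batches are not named in the sources used here) and, where several probe sets stood for a gene, used that of widest interquartile range. The deposited values are on the log2 scale. Differences between low signals may be compressed on arrays, and ComBat may leave less spread between arrays than there was.

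Groups and pool letters came from the array titles. The 45 arrays entered a single linear model, with a mean for each of the 15 groups, in limma 3.58.1 in R 4.3.3 (prior degrees of freedom 7.34, residual 30), with Benjamini-Hochberg adjustment over the 22080 genes of each comparison. The thresholds for DE were those of the methods, 0.7 in log2 fold change, up or down, and 0.05 in adjusted p. The spread of each gene was estimated once over all 3 tissues. For Sqle, Nsdhl and Dhcr7, however, the liver groups Control and HCD+Gl-2 spread more than any kidney or brain group. For Cyp51 liver Control and HCD+Gl-1 did, so the standard errors and adjusted p of these enzymes may be too small for liver. The number of arrays limits the precision. The 9 enzymes were taken by name. Other genes are named if DE in liver against Control, with Srebf2 in any case, as are the 5 genes most and the 5 least correlated with the enzymes. Some genes that this rule names are not reported here. Mylip was named after its value was seen. The enzymes and lists were chosen with earlier results of these data known, and the 10 marker lists held hepatocyte, kidney, brain, oligodendrocyte, pancreas, muscle, squamous, macrophage, cholangiocyte and immediate early genes. Of these, oligodendrocyte markers averaged 10.40 to 10.88 in brain and at most 6.77 elsewhere, macrophage markers 7.46 to 8.07 in liver, and cholangiocyte markers 6.47 to 6.74 in liver. Erg28 was found as 0610007P14Rik and Adgre1 as Emr1. The 13 genes whose names had turned into dates were tested but not named. Promoter windows came from RefSeq (GRCm38.p6). The closing section gives the alternatives. Figures were drawn with matplotlib 3.10.9.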

Additional observations from a re-analysis of the deposited data

Results flagged for a closer look

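The results here are those in which the change against Control differed between liver and another tissue by the test of the difference itself (limma, liver change minus other change, log2 scale). All are lower in liver. Against kidney, the difference for Sqle was -1.12 in HCD (adjusted p 0.00163), and that for Cyp51 was -0.93 in HCD+Gl-1 (adjusted p 0.00287). In HCD+Gl-2 it was -1.19 for Sqle, -1.26 for Cyp51, -1.05 for Nsdhl and -0.77 for Dhcr7. In HCD+Sim it was -0.90 for Sqle, -1.23 for Cyp51, -1.04 for Nsdhl and -0.94 for Dhcr7.

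Against brain, the difference for Sqle was -0.97 in HCD (adjusted p 0.00581). In HCD+Gl-1 it was -0.94 for Sqle, -0.71 for Lss, -0.79 for Cyp51, -0.79 for Tm7sf2, -1.33 for Nsdhl and -0.83 for Dhcr7. In HCD+Gl-2 it was -1.39 for Sqle, -1.23 for Cyp51, -1.60 for Nsdhl and -1.06 for Dhcr7. In HCD+Sim it was -0.95 for Sqle, -1.08 for Cyp51, -1.25 for Nsdhl and -0.91 for Dhcr7. The adjusted p of these differences reached 0.0236 at most, and all of them share the liver Control arrays. With each array left out in turn, the 25 such differences ran from 17 to 32, and without liver Control arrays A and B, an alternative chosen after the data were seen, there were 6.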

How the results depend on the processing

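The dim gene filter and the trend and robust moderation changed no liver call, and quantile normalization within tissue left HCD+Gl-1 with 3 DE enzymes against Control. The counts of enzymes called lower moved as follows. By adjusted p alone they were 2 in HCD and 7 in HCD+Gl-2 against Control, and 4, 3 and 3 against HCD (HCD+Gl-1, HCD+Gl-2, HCD+Sim). Counted in either direction, adjusted p alone called 1 enzyme between treatments (Cyp51, higher in HCD+Gl-1 than in HCD+Sim). On the Control diet it called 25 combinations of enzyme and tissue pair, in either direction, in place of 16. With only the compared groups in the fit, the enzymes called lower against Control were 0 in HCD, 2 in HCD+Gl-1, 3 in HCD+Gl-2 and 1 in HCD+Sim. Against HCD they were 0 in all 3. With the liver arrays alone they were 3 in HCD+Gl-1 against Control, where Sqle was lost, and 0 in all 3 against HCD. With pools A and B only, HCD had 2. Among alternatives chosen after the data were seen, a threshold of 0.5 gave 2 in HCD and 2, 2 and 2 against HCD. Leaving out liver Control arrays A and B gave 0 in HCD, 0 in HCD+Gl-1 and 2 in HCD+Sim, and 6 in place of 25 differences between tissues. Against HCD the counts were 0 in HCD+Gl-2 without its arrays A and C and 2 in HCD+Sim without its arrays A and B. With each array left out in turn the counts against Control ran from 1 to 2 in HCD and from 2 to 6 in HCD+Gl-1, and against HCD from 0 to 1, 1 to 2 and 0 to 2. Fits on the liver arrays or on the compared groups leave out the kidney and brain arrays, so the number of arrays and the estimated spread both change. Nsdhl in HCD+Gl-2 against HCD stayed at -1.02 in both of these fits, with limma adjusted p of 0.0866 and 0.187, against 0.000165 with all arrays. What moved the counts was not tested.

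The pool letters were not taken to pair arrays. Within a tissue, same-letter arrays of different diets held different mice and did not deviate together in every pair of groups. By the methods, liver and kidney were taken from the same mice. Whether same-letter arrays of different tissues deviate together was not checked, and all comparisons between tissues treat them as independent. With the pool letter as a replicate block no liver call changed (4, 4 and 4 in the treated groups, 1 in HCD and 1 in each comparison with HCD), and the tissue differences numbered 26 in place of 25.

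Some values changed sign. Ebp in HCD+Gl-2 turned to 0.07 against Control and 0.03 against HCD with pools A and B only, to 0.02 and 0.01 with quantile normalization within tissue, and to 0.08 and 0.07 without HCD+Gl-2 arrays A and C. With each array left out it ran from -0.06 to 0.04 against Control and from -0.07 to 0.04 against HCD. In HCD against Control, Ebp ran from -0.05 to 0.07 and Lss from -0.17 to 0.06. Against HCD, Sc5d in HCD+Gl-1 ran from -0.09 to 0.02, Hsd17b7 in HCD+Gl-1 from 0.00 to 0.12, and Sqle in HCD+Sim from -0.01 to 0.17. Without liver Control arrays A and B, HCD against Control gave 0.20 for Lss, 0.04 for Tm7sf2, 0.15 for Nsdhl, 0.03 for Hsd17b7, -0.04 for Ebp and 0.03 for Sc5d, and HCD+Gl-1 gave 0.08 for Hsd17b7 and 0.00 for Sc5d.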
